A study of Mus musculus with 10 samples.

Results

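The genes described here are 47 DNA repair genes that act in ordinary body cells as well as in the germline. They were taken by symbol from a list of Fanconi anaemia, excision, mismatch and end-joining repair genes, and all 47 were found among the 23420 gene rows of the count files. The data are polyA RNA sequencing of testis cells from mice of mixed background at postnatal day 18. The Ino80WT group (5 libraries) was set against the Ino80cKO group (5 libraries), in which Stra8-Cre, a driver active in male germ cells, removes Ino80 in the testis, and the comparison asks how transcript levels differ when this chromatin remodeller is deleted. The cells came from digested seminiferous tubules passed through a filter without sorting, so somatic cells could be present. The labels do not say whether Ino80WT mice carried the Cre or a floxed allele. Nothing states that each library came from its own animal, and the p-values therefore reflect variation among libraries, some of it possibly technical.

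Each repair pathway deals with its own kind of damage. Base excision repair and single-strand break repair remove small base lesions and seal the nicks this leaves, nucleotide excision repair cuts out bulky and ultraviolet lesions, and mismatch repair corrects copying errors. End joining reseals double-strand breaks without a template, while the Fanconi anaemia proteins unhook crosslinked strands and pass the break to homologous recombination, in which XRCC2 and XRCC3 act. In spermatocytes, programmed double-strand breaks are repaired by meiotic recombination, and proteins of these general pathways are present beside the meiotic ones.

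The assigned counts ranged from 16750609 to 23700094 per library. Levels are given as CPM, counts scaled to library size after TMM normalization, which brings libraries to a common scale by the bulk of their genes, with SD over 5 libraries. Differences are log2 fold changes of Ino80cKO over Ino80WT ± SE from edgeR's quasi-likelihood test, called at a Benjamini-Hochberg adjusted p below 0.05 over the 15265 genes tested. Ino80 itself had a mean of 95 ± 12.6 CPM in the control libraries and of 96.1 ± 1.37 CPM in those labelled as deleted. The sources used here do not state which exons are removed, so that count checks no label and the directions below rest on the labels.

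All 47 repair genes passed the filter on low counts. In Ino80cKO, 19 of them (40.4%) were lower, where 27.6% of all tested genes were lower, and 2 (4.26%) were higher, where 18.3% of all tested genes were higher. The remaining 26 were not called. By pathway, 25% of the Fanconi and 25% of the mismatch genes were lower, just under the 27.6% of all tested genes. In the other pathways the share was 37.5% to 80%. The falls touched every pathway, although the call in mismatch repair, Msh3, was lost under library totals (1 of 21 alternative fits). They were led by Xrcc4 of end joining, Polb of base excision repair and Fancg of the Fanconi core complex, at log2 fold changes of -1.01, -0.98 and -0.91. The rises were small and concerned Xpc and Neil2. Of the 47 genes, 7 were called lower by at least 1.5-fold, close to the share of 14.5% among all tested genes. Every Ino80WT library exceeded every Ino80cKO library in CPM for 16 of the 47 genes, against 22.0% of tested genes, and the reverse held for Neil2 alone, against 9.96%. The median log2 fold change over the 47 was -0.11, and over all tested genes 0.02.

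These counts depended on how libraries were scaled. With library totals in place of TMM factors, 12 repair genes were lower and 10 higher, where 19.2% and 35.9% of tested genes were lower and higher. That scaling moved the median of all tested genes to 0.19 and that of the repair genes to 0.07. Relative to the median of all genes, the repair genes' median was -0.12 under both scalings. The 12 genes lower under library totals were Xrcc4, Polb, Fancg, Xrcc2, Ercc8, Parp2, Ercc2, Xrcc1, Lig3, Fanci, Xrcc5 and Fancd2, and each of these was lower in all 21 alternative fits. The 10 higher under library totals were Xpc, Neil2, Ung, Neil1, Brip1, Fance, Fancf, Ercc3, Ercc6 and Pms1. The other genes called lower lost their call in some of the 21 fits, with a negative change throughout. These were Xpa (lost in 18 fits), Aptx (17), Neil3 (12), Ddb1 (4), Ercc4 (2), Ogg1 (2) and Msh3 (1).

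**Figure D1:**
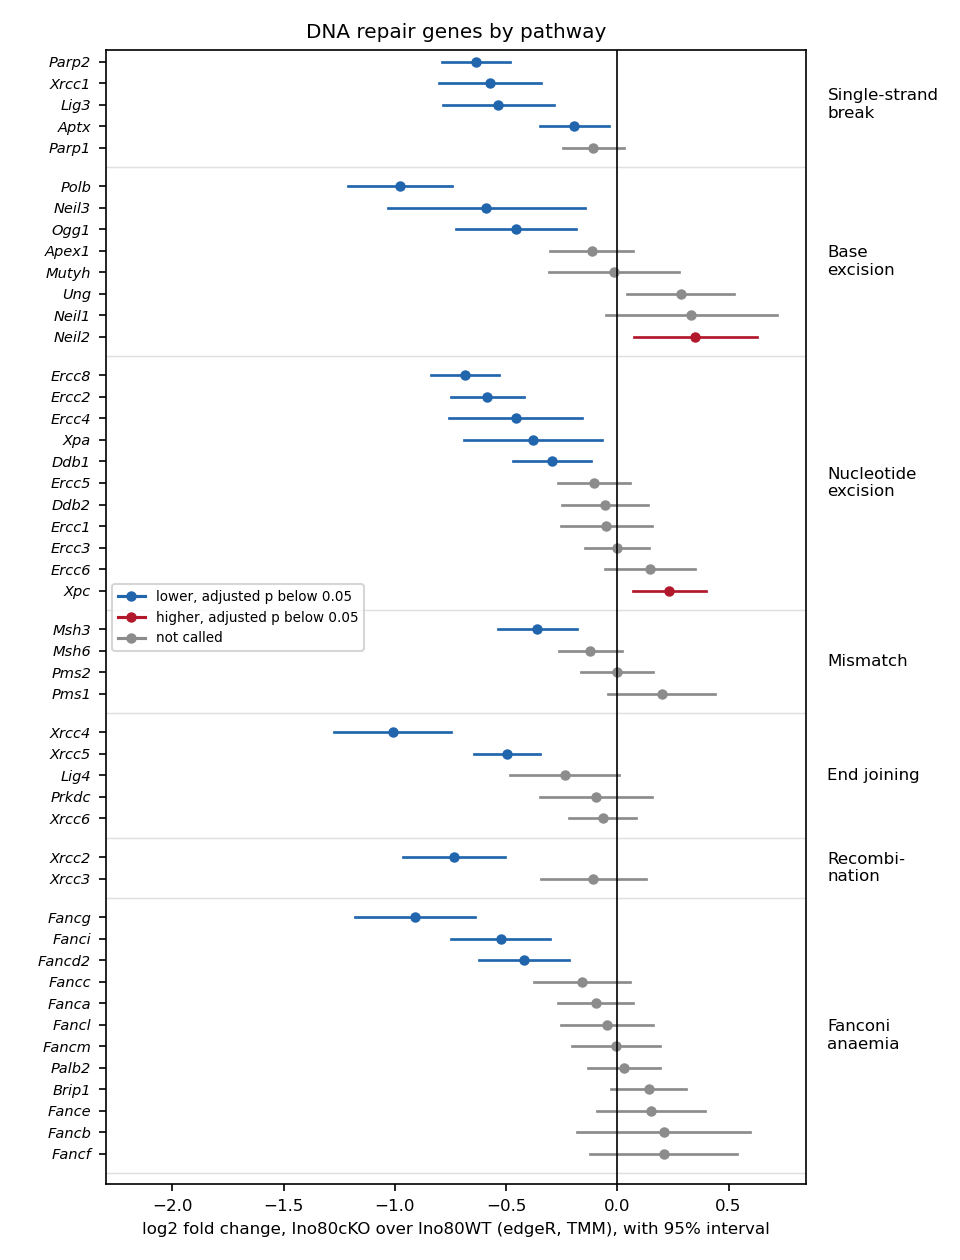
Log2 fold change of each of the 47 repair genes (point) with its 95% interval (line), Ino80cKO over Ino80WT, grouped by pathway. Blue marks the 19 genes called lower, red the 2 called higher and grey the 26 not called. Every pathway holds at least 1 blue gene and at least 1 grey gene.

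**Figure D2:**
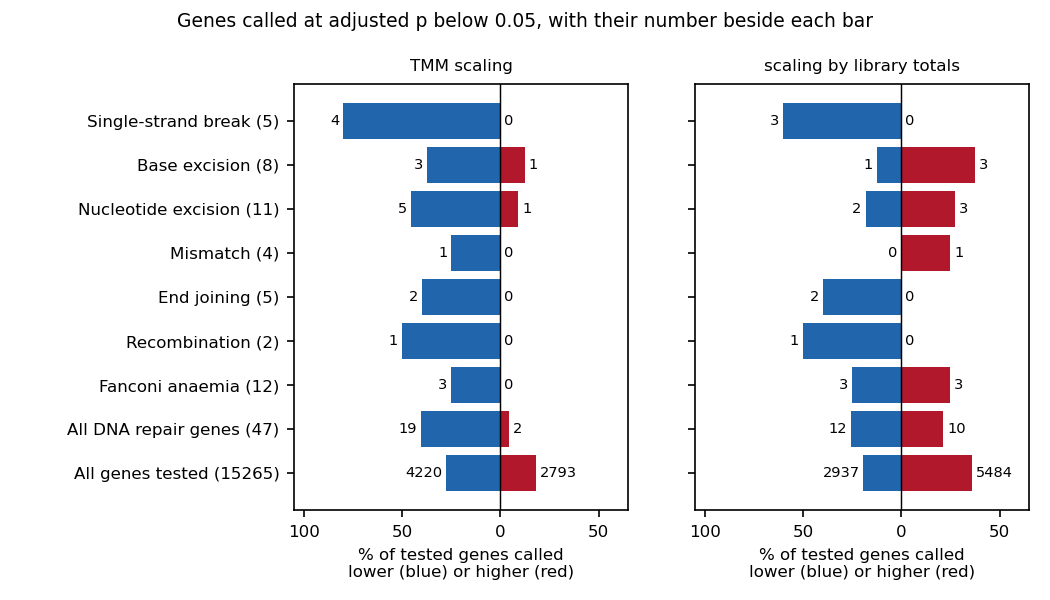
Percent of tested genes called lower (blue, to the left) and higher (red, to the right) in each pathway, in all repair genes and in all genes tested, with the number of genes beside each bar and the number tested in brackets. Left, TMM scaling; right, library totals. With library totals, base excision, nucleotide excision and mismatch repair had shorter blue and longer red bars, while end joining and the recombination genes Xrcc2 and Xrcc3 had bars of the same length in both panels.

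Markers of cell stages and cell types differed between the same libraries. All 10 pachytene spermatocyte markers were lower in Ino80cKO. Their summed level was 2441 to 4447 CPM in Ino80WT and 788 to 1466 CPM in Ino80cKO. Of 10 Sertoli cell markers 5 were higher (summed level 2716 to 4140 CPM against 4009 to 5275 CPM), of 6 macrophage markers 5 were higher (13.4 to 20.8 CPM against 28.4 to 35.6 CPM), and of 5 tested Leydig cell markers 3 were higher (26.4 to 71.5 CPM against 48.1 to 108.1 CPM). Of the other lists, 4 of 8 early prophase markers were lower (2292 to 3441 CPM against 1855 to 2361 CPM), 2 of 9 spermatogonial markers were higher (518 to 694 CPM against 682 to 790 CPM), 1 of 5 peritubular markers was higher (636 to 797 CPM against 711 to 1042 CPM), and 0 of 4 endothelial markers were called. Round spermatid and sperm transcripts were nearly absent, with Prm1, Prm2 and Tnp2 at 0 counts in every library. In bulk RNA, fewer cells of a type and less RNA per cell cannot be told apart, and the part of these cell markers in the repair genes' differences was not tested.

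Single-strand break repair had the most members called for its size, with 4 of 5 lower and a median log2 fold change of -0.53. Under library totals 3 were lower, with a median of -0.35. This pathway senses a nick with the poly(ADP-ribose) polymerases, assembles on the scaffold XRCC1 and seals with DNA ligase III. Parp2 (chromosome 14, 50807841 to 50821301, mm10), the lesser of the pair of nick-sensing polymerases, stood at 48.3, 46.2, 42.7, 42.7 and 47.5 CPM in the Ino80WT libraries and at 30.0, 29.9, 31.0, 28.9 and 26.6 CPM in the Ino80cKO libraries. The groups were far apart and each was tight. Parp2 was 1.55-fold lower, at a log2 fold change of -0.63 ± 0.07 (adjusted p = 6.45e-05).

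Xrcc1 (chromosome 7, 24546289 to 24573440), the scaffold, read 110.0, 94.4, 128, 83.2 and 94.2 CPM in Ino80WT against 69.9, 65.2, 63.4, 72.9 and 71.5 CPM in Ino80cKO, and Lig3 (chromosome 11, 82781108 to 82804274), its ligase, read 226, 284, 369, 258 and 307 CPM against 198, 196, 179, 214 and 211 CPM. In both genes library 3 of Ino80WT was the highest, library 3 of Ino80cKO the lowest, and the groups did not overlap. Xrcc1 fell by 0.57 ± 0.11 on the log2 scale (adjusted p = 0.00103) and Lig3 by 0.53 ± 0.12 (adjusted p = 0.00275). Of the exonic bases of Lig3, 25.1% overlap Rffl on the opposite strand. Aptx, whose product clears abortive ligation ends, differed least among the called genes (-0.19 ± 0.07, adjusted p = 0.0407), and its call held in 3 of 10 fits that left out 1 library (without Ino80WT 2, Ino80WT 4 or Ino80cKO 5). Aptx lost its call in 17 of the 21 alternative fits, and under library totals its change was -0.02 (edgeR adjusted p = 0.857).

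Parp1, the main nick sensor and the second most abundant repair gene per length, was not called. Its levels were 379, 390, 397, 386 and 369 CPM in Ino80WT and 372, 369, 335, 341 and 365 CPM in Ino80cKO. These ranges overlap narrowly. The log2 fold change was -0.11 ± 0.06 (adjusted p = 0.175), and the 95% limits of the fold were 0.845 and 1.02.

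In base excision repair, 3 of 8 genes were lower and 1 was higher, while library totals turned this to 1 lower and 3 higher. Polb (chromosome 8, 22628126 to 22653435) encodes the gap-filling polymerase, which works with XRCC1 and ligase III. Its levels were 103, 88.9, 114, 80.6 and 106 CPM in Ino80WT and 51.6, 50.3, 40.8, 51.8 and 55.8 CPM in Ino80cKO, so that the highest Ino80cKO library lay well below the lowest Ino80WT library. Polb was 1.97-fold lower (95% interval 1.67 to 2.32, log2 -0.98 ± 0.11, adjusted p = 6.16e-05).

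The glycosylases, which recognise and cut out damaged bases, went in both directions. Ogg1, for oxidised guanine, was at 28.8, 25.1, 25.5, 19.6 and 22.9 CPM in Ino80WT and at 18.3, 18.5, 13.4, 19.99 and 18.6 CPM in Ino80cKO. Only the lowest Ino80WT library reached into the Ino80cKO range, and Ogg1 fell by 0.45 ± 0.12 (adjusted p = 0.0106). Neil3, which also opens crosslinks, was at 3.59, 4.43, 7.64, 3.58 and 5.84 CPM against 3.45, 3.53, 3.36, 3.19 and 3.16 CPM. Its wild-type libraries spread over a factor larger than the difference itself. The log2 fold change of Neil3 was -0.59 ± 0.20 (adjusted p = 0.0329), and its call held in 3 of 10 fits without 1 library (Ino80WT 1, 2 or 4).

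Neil2, a glycosylase for oxidised pyrimidines, was at 4.72, 4.38, 4.06, 4.93 and 3.58 CPM in Ino80WT and at 5.64, 4.94, 5.98, 5.06 and 6.03 CPM in Ino80cKO. Its groups met without overlapping. Neil2 rose by 0.35 ± 0.13 on the log2 scale (adjusted p = 0.0398), a call that held in 4 of 10 fits without 1 library (Ino80WT 1, Ino80WT 4, Ino80cKO 2 or Ino80cKO 4). Ung, which removes uracil, came next to the threshold at 0.29 ± 0.11 (adjusted p = 0.0506), and was called higher in 3 of those 10 fits (without Ino80WT 1, Ino80cKO 3 or Ino80cKO 4). Neil1 had a value of 0.33 ± 0.18 (adjusted p = 0.14) at 1.23 CPM in Ino80WT, and was called without Ino80WT 1 alone.

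Mutyh, the adenine glycosylase opposite oxidised guanine, showed no difference that the libraries could resolve. Its levels were 6.48, 7.10, 5.76, 6.27 and 5.01 CPM against 6.26, 4.98, 7.16, 5.55 and 6.38 CPM (log2 -0.01 ± 0.14, 95% interval of the fold 0.808 to 1.21, adjusted p = 0.935). Apex1, the endonuclease that cuts at abasic sites, was not called either (-0.11 ± 0.09, adjusted p = 0.291). Most of its exonic bases, 61.7%, overlap Pip4p1 on the opposite strand.

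Nucleotide excision repair had 5 of 11 genes lower and 1 higher, spread over its steps, and 2 lower and 3 higher under library totals. Global damage is found by XPC and by the DDB1-DDB2 sensor, damage in transcribed strands by the Cockayne syndrome proteins ERCC6 and ERCC8. The TFIIH helicases ERCC2 and ERCC3 open the helix, XPA checks it, and the nucleases ERCC1-ERCC4 and ERCC5 cut on either side.

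Ercc8 (chromosome 13, 108158731 to 108195364) had the smallest p of the 47 genes. Its levels were 48.0, 48.0, 48.3, 44.8 and 50.7 CPM in Ino80WT and 31.1, 30.1, 26.7, 29.4 and 31.8 CPM in Ino80cKO. Both groups varied little and lay far apart, and Ercc8 was 1.61-fold lower (95% interval 1.45 to 1.79, log2 -0.69 ± 0.07, adjusted p = 4.84e-05). Its partner in the transcribed-strand branch, Ercc6, was at 106, 144, 128, 134 and 145 CPM against 139, 145, 163, 151 and 129 CPM and was not called (0.15 ± 0.09, adjusted p = 0.214).

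Ercc2 (chromosome 7, 19382010 to 19395694), the 5′ to 3′ helicase of TFIIH, was at 117, 119, 116, 107 and 114 CPM in Ino80WT and at 73.2, 75.0, 82, 85.2 and 66.4 CPM in Ino80cKO. Ercc2 fell by 0.58 ± 0.08 on the log2 scale (adjusted p = 0.00012), and the groups stayed clear of each other. Opposite-strand exons of Gm26852 cover 24.6% of its exonic bases. Ercc3, the other TFIIH helicase, was at 96.5, 102, 106, 95 and 94.7 CPM against 103, 100.3, 94.0, 91.4 and 104 CPM. That is a log2 fold change of 0.00 within an SE of 0.07 (95% interval of the fold 0.905 to 1.10, adjusted p = 0.983), although library totals made it higher by 0.18 (adjusted p = 0.0407).

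Ddb1 was the most abundant of the 47 genes, and is also an adaptor of CUL4 ubiquitin ligases outside repair. It read 711, 827, 904, 777 and 844 CPM in Ino80WT and 700, 658, 606, 676 and 672 CPM in Ino80cKO. The lowest Ino80WT library was barely above the highest Ino80cKO library, and the fall was 1.23-fold (log2 -0.29 ± 0.08, adjusted p = 0.0103, but -0.12 with adjusted p = 0.208 under library totals). Its sensor partner Ddb2 was not called (-0.05 ± 0.09), with 23.8% of its exonic bases opposite Acp2. For Ddb1, 5.12% lie opposite Tkfc, which was lower too (-1.32).

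Ercc4, the catalytic subunit of the 5′ nuclease, was at 25.9, 34.8, 45.6, 30.0 and 33.6 CPM against 21.7, 23.7, 23.2, 26.8 and 28.6 CPM. The groups overlapped through Ino80WT library 1, and Ercc4 fell by 0.46 ± 0.14 (adjusted p = 0.0166). Its stabilising partner Ercc1 was at 22.8, 23.7, 25, 17.8 and 21.9 CPM against 22.0, 21.0, 21.2, 20.9 and 22.2 CPM and was not called (-0.05 ± 0.09, adjusted p = 0.684). Xpa, with 4.07% of its exonic bases opposite Ncbp1 (also lower, -0.76), fell by 0.38 ± 0.14 (adjusted p = 0.0452). Its call was kept in 2 of 10 fits without 1 library (Ino80WT 2 or Ino80WT 4). Xpc, which finds distorted helices, rose by 0.23 ± 0.08, from 36.6 ± 2.50 to 43.0 ± 2.88 CPM (adjusted p = 0.024), with the groups just overlapping and the call kept in 7 of 10 such fits (lost without Ino80WT 5, Ino80cKO 2 or Ino80cKO 5). The 3′ nuclease Ercc5 was not called (-0.11 ± 0.07).

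Mismatch repair had 1 of 4 genes lower under TMM scaling (25%, against 27.6% of all tested genes). Under library totals 0 were lower and 1 was higher. MSH3 and MSH6 recognise larger loops and single mispairs, and PMS2 and PMS1 act after recognition. Msh3 was at 74.7, 75.2, 84.8, 73.3 and 92 CPM in Ino80WT and at 61.1, 69.9, 60.1, 61.8 and 58.8 CPM in Ino80cKO, without overlap, and fell by 0.36 ± 0.08 (adjusted p = 0.00379). Msh6 was not called (-0.12 ± 0.06, adjusted p = 0.142). Pms2, the endonuclease subunit, was at 39.2, 41.5, 40.6, 40.5 and 46.3 CPM against 44.8, 38.6, 42.1, 43.6 and 38.5 CPM, which places its fold between 0.893 and 1.12 (95% interval, adjusted p = 0.988). Pms1 was at 0.20 ± 0.11 (adjusted p = 0.155).

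In end joining, 2 of 5 genes were lower under both scalings. The Ku heterodimer of XRCC5 and XRCC6 caps the broken end and recruits the kinase PRKDC, and ligase IV with its cofactor XRCC4 seals the break. Xrcc4 (chromosome 13, 89774027 to 90089608) showed the deepest fall of all 47 genes. It read 54.3, 44.4, 56.6, 39.2 and 58.1 CPM in Ino80WT and 23.6, 25.4, 20.9, 27.5 and 28 CPM in Ino80cKO. No library came near the other group, and the fall was 2.01-fold (95% interval 1.68 to 2.42, log2 -1.01 ± 0.12, adjusted p = 8.53e-05).

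Xrcc5 (chromosome 1, 72307421 to 72394952), Ku80, was at 82.9, 71.3, 80.4, 70.5 and 82.9 CPM against 54.6, 54.9, 54.0, 55.4 and 56.1 CPM. The Ino80cKO libraries were nearly identical, and Xrcc5 was 1.41-fold lower (log2 -0.50 ± 0.07, adjusted p = 0.000159). Its dimer partner Xrcc6, Ku70, was at 83.5, 72.0, 71.2, 71.9 and 76.6 CPM against 73.8, 76.4, 72.1, 66.9 and 69.1 CPM and was not called (-0.07 ± 0.07, adjusted p = 0.451). Lig4 read 31.6, 31.1, 46.2, 30.3 and 37.1 CPM against 27.8, 30.3, 30.2, 30.8 and 30.5 CPM (-0.24 ± 0.11, adjusted p = 0.101).

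Prkdc had 1 library that decided its result. The level was 71.9 CPM in Ino80WT library 1 and 108, 111, 118 and 116 CPM in the other Ino80WT libraries, against 97.5, 97, 94.4, 99.0 and 105 CPM in Ino80cKO. With all libraries Prkdc was not called (-0.10 ± 0.12, adjusted p = 0.511), and without Ino80WT library 1 it was lower by 0.18 (adjusted p = 0.0192). Longer transcripts tended to read lower in that library. Across 12555 genes, its deviation from the other Ino80WT libraries had a Spearman rho with length of -0.53 (-0.63 over the 47 repair genes), where in each of the other 9 libraries rho over the 12555 genes was between -0.10 and 0.31. These values are descriptive, and the part of length in the Prkdc result was not tested.

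The pair of recombination genes had 1 of 2 lower under both scalings. Xrcc2 (chromosome 5, 25689812 to 25705825), which acts in repair of breaks from a template, was at 36.6, 37.3, 43.4, 38.4 and 42.7 CPM in Ino80WT and at 23.1, 26.1, 19.1, 22.4 and 28.7 CPM in Ino80cKO. All Ino80cKO libraries were below all Ino80WT libraries, and Xrcc2 fell 1.66-fold (log2 -0.73 ± 0.11, adjusted p = 0.00022). Xrcc3, which acts in a separate complex, was at 9.82, 11.3, 12.1, 9.68 and 11.3 CPM against 10.3, 9.35, 8.79, 10.3 and 11.6 CPM and was not called (-0.11 ± 0.11, adjusted p = 0.432).

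Among the 12 Fanconi anaemia genes, 3 were lower (25%, against 27.6% of all tested genes) and 9 were not called, with a median of -0.03. Under library totals the same 3 were lower, and Brip1, Fance and Fancf were higher. The core complex attaches ubiquitin to the FANCD2-FANCI clamp at a crosslink, FANCM brings the complex to the lesion, and BRIP1 and PALB2 work downstream in recombination. Fancg (chromosome 4, 43002343 to 43010506), of the core complex, was at 81.6, 103, 110.3, 79.1 and 99.4 CPM in Ino80WT and at 51.8, 48.2, 38.0, 56.8 and 57.1 CPM in Ino80cKO. The groups were clearly separate, and Fancg was 1.88-fold lower (95% interval 1.56 to 2.27, log2 -0.91 ± 0.13, adjusted p = 0.000157). Fanca, which binds FANCG, was at 35.9, 39.6, 42.6, 42.1 and 35.4 CPM against 35.6, 37.6, 34.7, 35.1 and 39.9 CPM and was not called (-0.10 ± 0.08, adjusted p = 0.321).

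Both genes of the clamp were lower. Fanci (chromosome 7, 79391929 to 79450264) was at 62.2, 75.7, 73.1, 64.1 and 72.6 CPM in Ino80WT and at 52.0, 49.3, 37.9, 46.6 and 56.1 CPM in Ino80cKO, and Fancd2 (chromosome 6, 113531682 to 113597017) was at 97.2, 123, 132, 108 and 125 CPM against 91.3, 88.2, 75.0, 88.4 and 94.3 CPM. In neither gene did the groups overlap, although Ino80WT library 1 of Fancd2 came close to the Ino80cKO range. Fanci fell by 0.52 ± 0.10 (adjusted p = 0.00147) and Fancd2 by 0.42 ± 0.09 (adjusted p = 0.0033).

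Fancm was the Fanconi gene with the smallest difference, at 37.0, 49.5, 52.9, 47.7 and 51.2 CPM against 48.8, 46.8, 45.4, 49.5 and 47.1 CPM (95% interval of the fold 0.869 to 1.14, adjusted p = 0.97). The remaining genes without a call were Fancc (-0.16), Fancl (-0.05), Palb2 (0.03), Brip1 (0.14), Fance (0.15), Fancb (0.21) and Fancf (0.21), in log2. Fancb is the only X-linked gene of the 47, with a mean of 1.77 ± 0.321 CPM in Ino80WT libraries and 2.05 ± 0.336 CPM in the Ino80cKO group. Fance and Fancf were called higher without Ino80WT library 1 (adjusted p = 0.0405 for both). Of the 26 genes without a call, 15 had a 95% interval of the fold inside 0.8 to 1.25, while the data leave room for larger differences in the other 11.

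**Figure D3:**
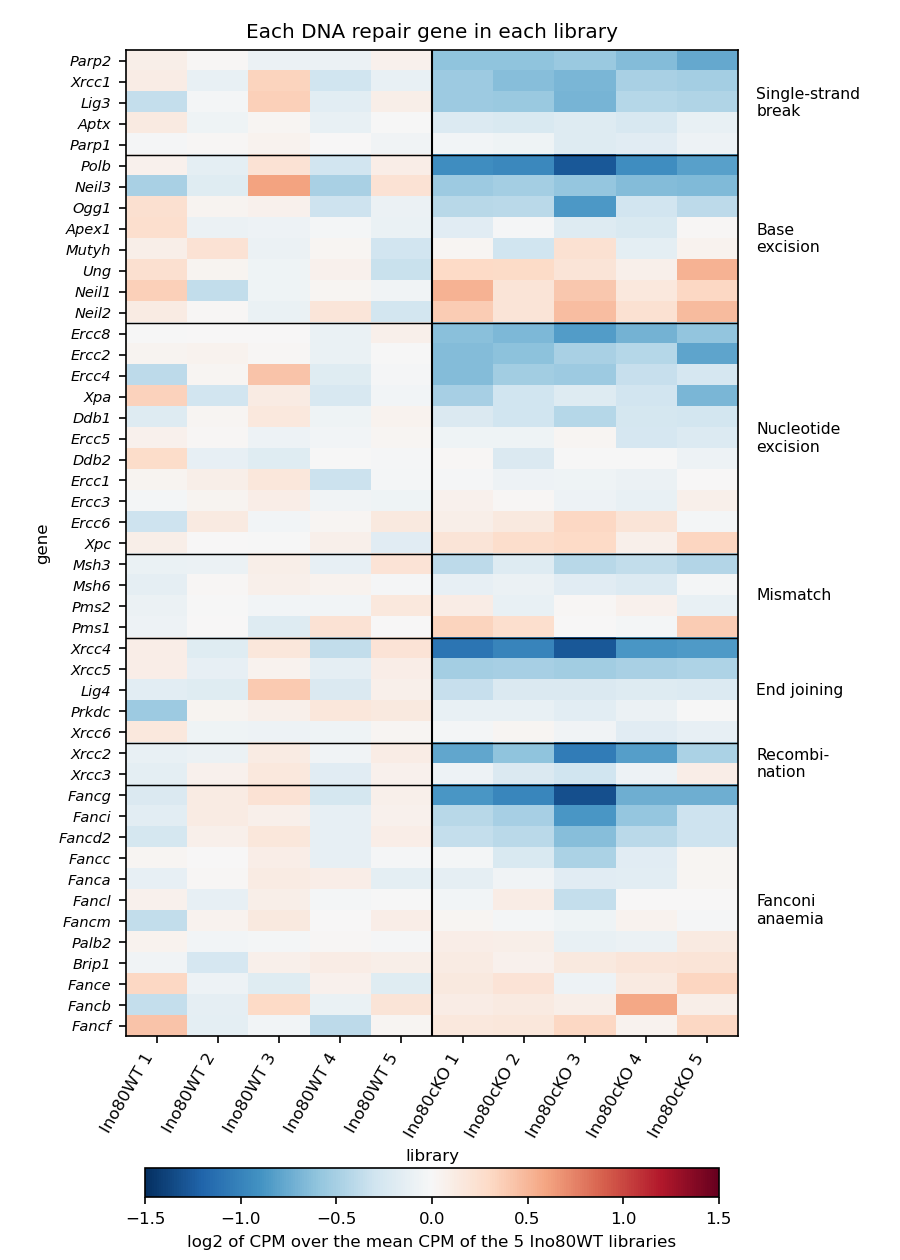
Level of each repair gene (rows, by pathway) in each of the 10 libraries (columns), as log2 of its CPM over the mean CPM of the 5 Ino80WT libraries; blue is lower and red higher. Dark blue in the Ino80cKO columns marks Polb, Xrcc4 and Fancg, deepest in Ino80cKO library 3.

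Library 3 of each group stood at the ends of the range. Of the 19 genes called lower, 9 were highest in Ino80WT library 3 and 12 were lowest in Ino80cKO library 3, with 7 doing both. Among the 26 genes without a call these numbers were 9 and 6. A call of lower itself favours a highest library in Ino80WT and a lowest in Ino80cKO, so the 2 sets are not like for like. The share over all tested genes was not measured. Ino80WT library 3 and Ino80cKO library 3 had the highest and lowest summed pachytene marker level (4447 and 788 CPM). They also had the lowest and highest Sertoli marker level (2716 and 5275 CPM). Without both libraries, 14 repair genes were lower and 0 higher by the same edgeR test.

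Some partner genes moved unequally. For 15 pairs, the log2 ratio of the counts of both genes was formed within each library, which removes any effect of library scaling, and was compared between groups by an exact two-sided permutation test over all assignments of the libraries, adjusted over the 15 pairs. The smallest p this design allows is 0.00794, and 7 pairs reached it (adjusted p = 0.017), with groups that did not overlap. These were Xrcc4 over Lig4 (difference -0.78 ± 0.11), Xrcc2 over Xrcc3 (-0.63 ± 0.08), Ercc2 over Ercc3 (-0.59 ± 0.10), Xrcc5 over Xrcc6 (-0.43 ± 0.06), Parp1 over Parp2 (0.53 ± 0.08), Fanca over Fancg (0.82 ± 0.14) and Ercc6 over Ercc8 (0.84 ± 0.13), in log2 ± SE. Each of the 7 joins a gene called lower to a gene not called, where 27.6% of all tested genes were lower and 18.3% higher. The share of unrelated gene pairs that differ in this way was not measured, and the pairs were chosen with earlier results known.

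The ligase IV pair shows the pattern by library. In Ino80WT, the log2 ratio of Xrcc4 to Lig4 was 0.78, 0.51, 0.29, 0.37 and 0.65, and in Ino80cKO -0.24, -0.25, -0.53, -0.16 and -0.13. Every Ino80WT library had more Xrcc4 than Lig4 counts and every Ino80cKO library fewer. Partners differ in transcript length, and Ino80WT library 1, in which longer transcripts read lower, can therefore shift a ratio. Without that library the 7 pairs stayed called with groups that did not overlap (exact permutation adjusted p = 0.0265), Xrcc4 over Lig4 at -0.72. The Ku pair went from 0.05 ± 0.09 (SD, n = 5) to -0.38 ± 0.09 in Xrcc5 over Xrcc6.

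Ercc1 over Ercc4 passed by a small margin (0.40 ± 0.14, exact permutation adjusted p = 0.0446) with overlapping groups, and kept its call in 1 of 10 repeats without 1 library (without Ino80WT 1). The other 7 pairs were not called. Xrcc1 and Lig3 were both lower, and their ratio differed by -0.04 ± 0.12 with Ino80WT library 1 and by 0.07 without it. Ddb1 over Ddb2 (-0.36, exact permutation adjusted p = 0.0265) and Fancc over Fance (-0.40, exact permutation adjusted p = 0.0476) were called without that library. Fancd2 and Fanci were both lower too, with a difference of 0.12 ± 0.05 in their ratio (exact permutation adjusted p = 0.0974). For Msh6 over Msh3 the difference was 0.24 ± 0.08 (exact permutation adjusted p = 0.0529), for Fancc over Fance -0.33 ± 0.12, for Ddb1 over Ddb2 -0.24 ± 0.14, for Fancb over Fancl 0.27 ± 0.16 and for Pms2 over Pms1 -0.20 ± 0.13.

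**Figure D4:**
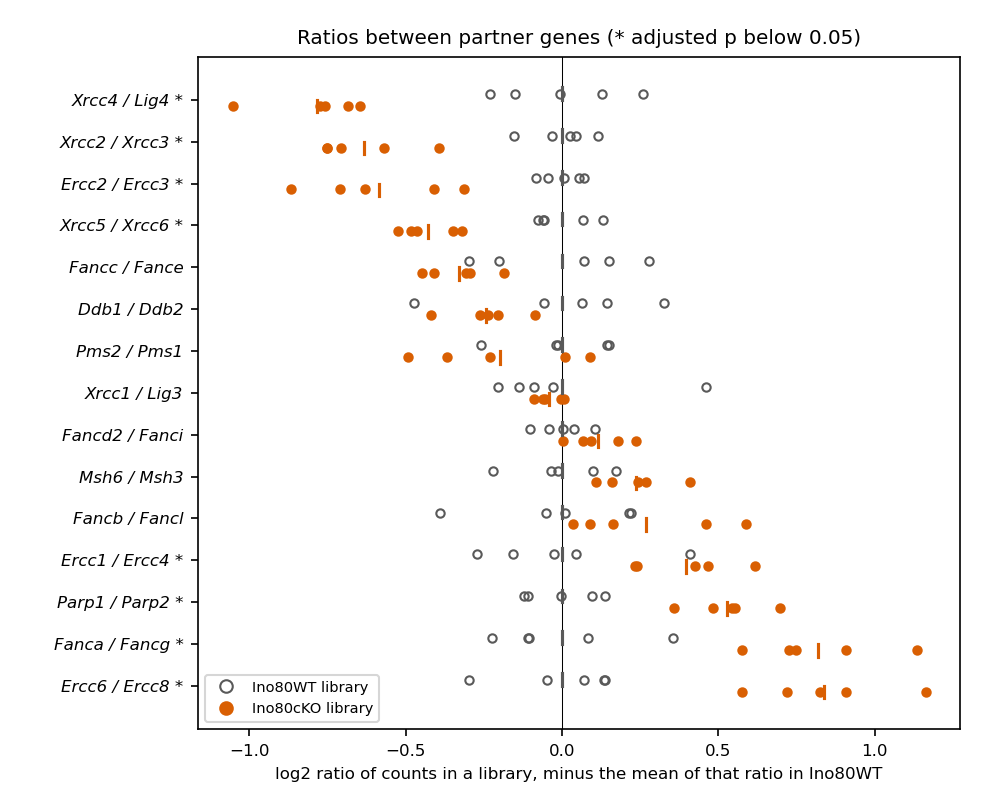
Log2 ratio of counts between partner genes in each library, shown as the distance from the mean of that ratio in Ino80WT; open grey circles are Ino80WT libraries, filled orange circles Ino80cKO libraries, and short vertical lines the group means. Asterisks mark the 8 pairs called by the exact permutation test. Orange and grey are apart in 7 of these, from Xrcc4 over Lig4 at the top to Ercc6 over Ercc8 at the bottom.

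**Figure D5:**
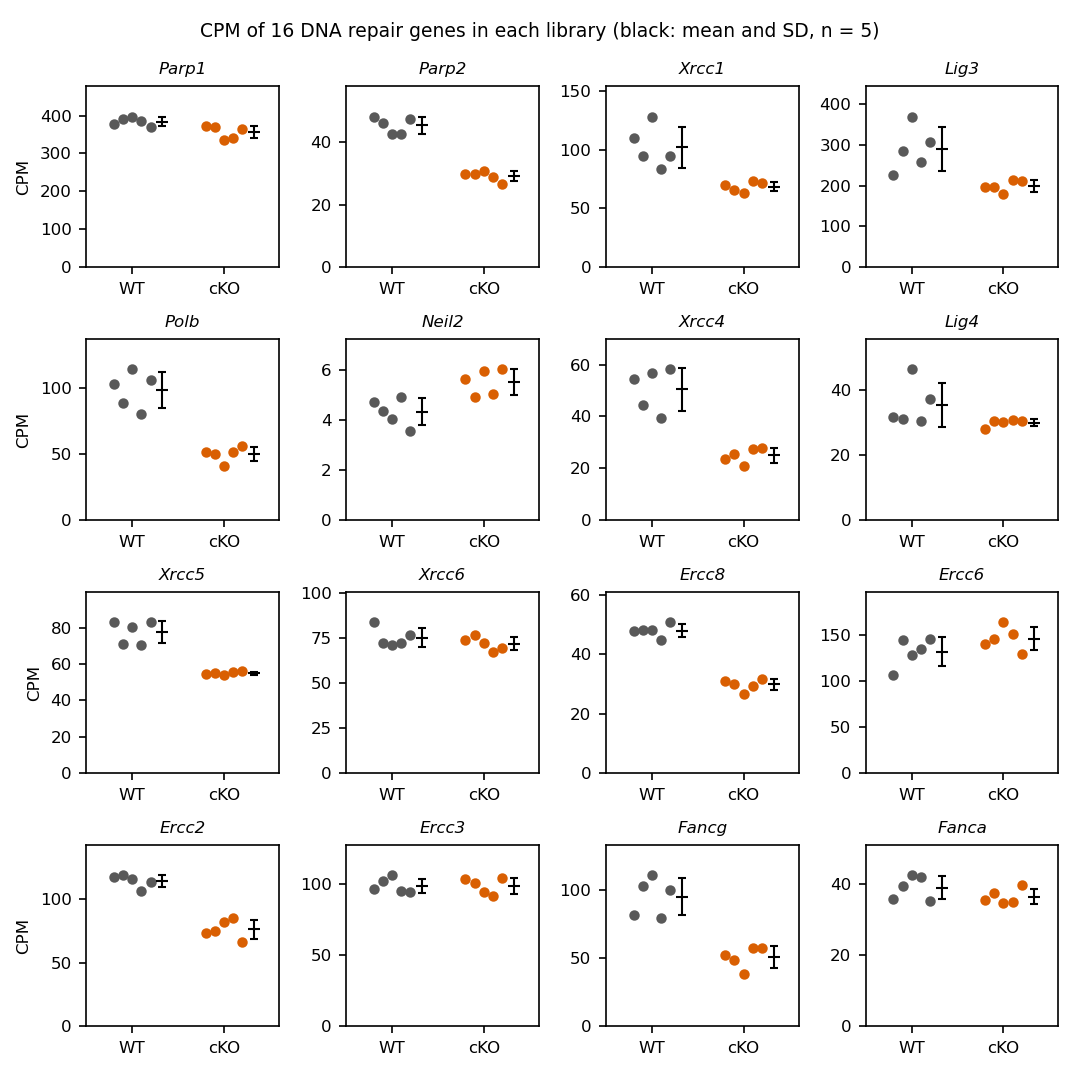
CPM of 16 repair genes in each library (grey, Ino80WT; orange, Ino80cKO), with the mean and SD over 5 libraries in black; each vertical axis starts at 0. Parp2, Polb, Xrcc4, Xrcc5, Ercc8, Ercc2 and Fancg drop without overlap, while Parp1, Xrcc6, Ercc6, Ercc3 and Fanca beside them overlap between groups.

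Levels of different genes were compared per length, as CPM per kb of the longest annotated transcript. In Ino80WT, the most abundant repair transcripts were Ddb1 at 182 ± 16.3 and Parp1 at 99.2 ± 2.80 CPM per kb. Apex1 (52.5 ± 5.81), Lig3 (48.5 ± 9.08) and Msh6 (48.3 ± 2.62) followed and cannot be ordered within their spread. The lowest were Neil2 (1.21 ± 0.150), Neil1 (0.727 ± 0.131) and Fancb (0.594 ± 0.108). In Ino80cKO the top 3 and the lowest 2 stood in the same places, at 148.6, 92 and 48.5 and at 0.911 and 0.689 CPM per kb. Xrcc4 moved from place 22 of 47 to place 32, Xpa from 25 to 35 and Xrcc2 from 23 to 31, whereas Ercc6 moved from 18 to 12. The order rests on the transcript chosen for the length. With the median transcript length Ddb1 and Parp1 stayed first and second, Msh6 came next at 355 CPM per kb, and Apex1 was at place 13 with 66.1 CPM per kb.

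Other genes of the same pathways were looked up from lists of 57 genes found in the files. Of the 56 tested, 22 were lower (39.3%) and 6 higher (10.7%), against 27.6% and 18.3% of all tested genes. Under library totals 18 were lower (32.1%) and 14 higher (25%), against 19.2% and 35.9%. Of the Fanconi pathway, Ube2t, the ubiquitin-conjugating enzyme of the core complex, went from 105.5 ± 8.29 to 60.4 ± 7.48 CPM (-0.81 ± 0.09, adjusted p = 7.78e-05), and Usp1, which removes that ubiquitin, from 415 ± 103 to 193 ± 25.9 CPM (-1.10 ± 0.16, adjusted p = 0.000197). Both fell together with the clamp they act on, in a list with 6 of 13 lower and 1 higher.

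In end joining, 3 of 7 other genes were lower and 1 higher. Nhej1, which binds XRCC4, fell by 0.88 ± 0.10 (adjusted p = 8.18e-05), and the gap-filling polymerase Poll by 0.97 ± 0.17 (adjusted p = 0.000686). Nucleotide excision had 7 of 16 lower and 1 higher, among them the TFIIH core subunits Gtf2h1 (-0.62 ± 0.08, adjusted p = 0.000113) and Gtf2h4 (-0.52 ± 0.09, adjusted p = 0.000742). In mismatch repair 2 of 5 were lower and 0 higher, among them the clamp Pcna (-0.48 ± 0.09, adjusted p = 0.000805), although the median of the 5 was 0.04 and library totals gave 1 lower and 3 higher.

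Of 12 other base excision and single-strand break genes 3 were lower and 3 higher, with 2 lower and 4 higher under library totals. Tdp1, which frees trapped topoisomerase I, fell by 0.63 ± 0.10 (adjusted p = 0.000453) and the glycosylase Mpg by 0.57 ± 0.11 (adjusted p = 0.0016). The 3 that rose, named after their values were seen, were the glycosylases Tdg and Mbd4 and the flap endonuclease Fen1. Tdg had the largest change of the 12 (1.21 ± 0.26, adjusted p = 0.00258) at a low level, 0.490 ± 0.147 CPM in Ino80WT and 1.14 ± 0.253 CPM in Ino80cKO. Copies of Tdg elsewhere were not searched for, so its level and change may leave out reads that match several places. Mbd4 (0.29 ± 0.08, adjusted p = 0.00864) and Fen1 (0.30 ± 0.10, adjusted p = 0.0222) rose less. Of 8 meiotic genes, only some of them homologs of repair genes, 6 were lower and 0 higher. Msh4 (-0.77) and Mlh3 (-0.99), homologs of mismatch repair genes, were lower, while Msh5 (-0.19) and Dmc1 (-0.07) were not called. The median of the 8 was -0.61 against -0.11 for the 47. That difference between lists was not tested.

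Many repair genes share a start region with a gene on the opposite strand. Within 1000 bases, 18 of the 47 (38.3%) had a tested neighbour starting on the opposite strand, against 13.95% of 14393 tested protein-coding genes. Of the 7 called lower among them, 4 had a neighbour that was lower too and 3 one that was not called. Over all protein-coding genes, 45.2% of the 796 lower genes with such a neighbour had one that was lower too, so 4 of 7 is close to the background. Ercc8 and Ndufaf2, whose starts lie 108 bases apart, fell alike (-0.69 for both), and Parp2 fell with Ccnb1ip1, a meiotic crossover factor 109 bases away (-0.63 and -0.85). Xrcc4 (-1.01) and Tmem167 (-0.14, adjusted p = 0.183) did not show this. Xpc rose while Lsm3, 40 bases away, fell by 0.69 (adjusted p = 0.000105).

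RefSeq promoter windows of the GRCm38.p6 build were found for 39 of the 47 genes. Only 13 of the 39 windows held no exon base annotated in GENCODE M21. The others overlapped exons of the gene itself or of another gene, so not all of this sequence lies outside transcripts. In the 250 bases before the RefSeq start, the median was 17 CpG sites over the 39 genes, 17 over the 16 called lower and 17 over the 23 not called, against 6 over 27025 genes. The 27025 include genes that did not pass the filter on low counts, which all 47 repair genes passed. A background of expressed genes alone was not used, for CpG sites or for the motifs below. Motifs were searched on both strands. CCAAT was in 22 of the 39 windows (34.5% of all windows), the ETS motif CCGGAAG in 8 (7.05%), the E2F motif GCGGGAA in 7 (3.84%), the MYB motif CNGTTA in 6 (19.8%) the NRF1 motif GCATGCGC in 5 (2.32%), and the YY1 motif AAGATGG (4.53%) and the CRE motif TGACGTCA (1.62%) in 1 each. Motifs were counted separately where they overlapped. Of the genes called lower, CCAAT was in 8 of 16, ETS in 2, E2F in 2, MYB in 3 and NRF1 in 3. A match is only a run of letters and no evidence of binding. No test was made between the groups.

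The windows of 1 gene that fell in every fit and 1 that was not called are shown, both from the 9 windows that held no annotated exon and started where both annotations place the gene. Capitals mark CCAAT, or ATTGG where it lies on the other strand. Xrcc5 has 5 CpG sites at chr1:72307171-72307420 on the plus strand, well below the median of the repair genes, and Fanca 14 at chr8:123318577-123318826 on the minus strand.
Xrcc5: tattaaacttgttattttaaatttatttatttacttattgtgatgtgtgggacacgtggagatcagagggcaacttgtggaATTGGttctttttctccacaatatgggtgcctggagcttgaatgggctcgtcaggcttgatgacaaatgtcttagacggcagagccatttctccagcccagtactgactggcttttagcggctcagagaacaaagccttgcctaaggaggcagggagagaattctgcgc
Fanca: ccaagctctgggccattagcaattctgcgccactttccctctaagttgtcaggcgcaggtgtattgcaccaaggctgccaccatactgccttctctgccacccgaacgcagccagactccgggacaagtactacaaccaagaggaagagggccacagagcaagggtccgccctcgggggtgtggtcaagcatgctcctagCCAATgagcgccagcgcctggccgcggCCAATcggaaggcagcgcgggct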

How the data were processed

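The authors deposited 1 table of whole-number read counts per gene for each of 10 libraries, not normalized. Per the submitters' processing notes, TopHat2, HTSeq, DESeq2 and the mm10 build were used. The sources used here give no version, annotation or strand setting, so for the 24 genes whose exons overlap an opposite-strand gene the reads may not be separable. Per the labels' protocols, the library kit was stranded. Rows naming no gene held 35.5% to 44.0% of reads and stayed out. The lowest chi-square per gene between 2 libraries was 9.00, so all 10 were taken as separate.

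The test was edgeR 4.0.16 under R 4.3.3 (TMM, filterByExpr with minimum count 10 and total 15, robust quasi-likelihood, genotype as the only term), with Benjamini-Hochberg adjustment over 15265 genes. SE is the fold change over the root of F. Ratios used counts plus 0.5, with SciPy 1.17.1 for permutation. Both were tested on simulated data. Positions and lengths are from GENCODE M21 (GRCm38, the same build). The floor of 3 counts was 0.127 to 0.179 CPM, for counting error only. A search for copies elsewhere at 95% identity matched at most 5.47% of any of the 47 genes' transcripts.

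Alternatives were library totals, RLE and upper-quartile factors, DESeq2 1.42.0, limma-voom (limma 3.58.1), other filters, Rn45s removed, a replicate block, and libraries left out. Full values were given for up to 3 called genes of each pathway with the smallest p, its uncalled gene with the smallest change and both genes of each called ratio. Of other lists, up to 2 called genes were named. Certain genes that the totals include are not reported here. The 47 genes, lists, pairs and rules were chosen with earlier results of these data known.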

Additional observations from a re-analysis of the deposited data

Results flagged for a closer look

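Across 124 groups of 5 libraries (47 genes and 15 ratios in each genotype), 7 values stood apart from the other 4 by more than Dixon's 95% limit of 0.71 of the range, where chance gives about 6.2. In Ino80WT library 1, Prkdc was low at 71.9 CPM (others 108 to 118), Apex1 was high at 77.8 CPM (others 60.8 to 64.0), and the log2 ratio of Xrcc1 to Lig3 was high at -1.04 (others -1.70 to -1.53). In the Ino80cKO group, library 4 was high in Fancb at 2.65 CPM (others 1.88 to 1.94), library 2 was high in Msh3 at 69.9 CPM (others 58.8 to 61.8), library 1 was low in Lig4 at 27.8 CPM (others 30.2 to 30.8), and library 3 was low in Ogg1 at 13.4 CPM (others 18.3 to 19.99).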

How the results depend on the processing

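Of the 19 genes called lower, 12 were called in all 21 alternatives and 7 were not, with a negative change in each. Of 987 gene values under alternatives, 890 kept their side of the threshold (86 of them, in 16 uncalled genes, changed sign without a call), 69 lost their call, 27 gained one, and 1 reversed, Ercc3 at 0.18 under library totals. Library totals gave 12 repair genes lower and 10 higher, and 5484 of all genes higher. Upper-quartile factors gave 6 repair genes higher and 4886 of all genes. Without Ino80WT libraries 1 and 2, the ones with the most ribosomal Rn45s counts, 4 were higher. Without Ino80WT 3 and Ino80cKO 3, 0 were. In fits that each left out 1 library, 0 to 6 repair genes were higher (6 when Ino80WT 1 was absent, 0 when Ino80WT 5 or Ino80cKO 5 was) and 16 to 19 lower. With a replicate block, 15 were lower and 0 higher. Correlations of deviations between same-numbered libraries were -0.47 to 0.20. They cannot show whether such libraries shared a litter or day, which the sample labels do not give. Of the partner ratios, 0 were called without Ino80WT 1 and 2, 0 without Ino80WT 3 and Ino80cKO 3, and 0 with sign changes within the replicate block. These designs hold fewer arrangements, with smallest exact permutation p-values of 0.0357, 0.0286 and 0.0625, and all 8 called pairs kept their sign in them. Leaving out 1 library gave 7 to 10 called ratios. Except where a design allowed fewer arrangements, the cause of a moved value was not tested. Depth limits Fancb, Fancf, Neil1, Neil2 and Neil3, at 1.23 to 5.02 CPM in Ino80WT.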
